A study of Homo sapiens with 20 samples.

Results

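ADAR was deleted with CRISPR-Cas9 in NCI-H1650, a human lung adenocarcinoma cell line, and the RNA of all genes was read in 4 libraries. These were taken from the series by their labelled cell line, which gave 4 of 20 samples. In 2 libraries the sgRNA targeted ADAR (ADAR sgRNA 1 and 2), and in 2 it targeted GFP (GFP sgRNA 1 and 2), a gene that human cells lack and that serves as the control target. All 4 libraries came from untreated cells transduced with a lentivirus that carries Cas9 and the sgRNA, so the GFP libraries share the vector and the enzyme. The cells were transduced and selected populations, and cells that kept ADAR can be among them. The replicates of a condition are its 2 sgRNAs (n = 2), so every error below is the spread between sgRNAs in these libraries and not between repeats of the experiment. The same deletion in HCC366, in NCI-H196 and in A549 with vehicle for 24 h, 4 samples each, is used only to test where NCI-H1650 differs. The paper times the RNA of NCI-H1650, HCC366 and NCI-H196 from transduction. For A549 it gives the 24 h of treatment before RNA, so handling differs together with the line.

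ADAR encodes ADAR1, an enzyme that turns adenosine into inosine in double-stranded RNA and so loosens duplexes in the cell's own transcripts. Duplexes that stay paired can be bound by cytoplasmic sensors. MDA5 and RIG-I signal through MAVS to IRF3 and NF-kB, which switch on interferons and chemokines, whereas PKR phosphorylates eIF2α, which lowers protein synthesis and favours translation of ATF4, the transcription factor of the integrated stress response. Interferons act back on cells through their receptors and induce interferon-stimulated genes (ISGs), ADAR among them. Immediate-early genes such as EGR1 and FOS are switched on soon after a stimulus, largely through MAP kinases and the factors SRF and CREB.

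The 4 libraries held between 4178438 and 5440992 reads on genes, and 36.2% to 46.5% of alignments were not unique, the most in ADAR sgRNA 1. Levels are given as CPM, the reads of a gene as a share of its library after TMM scaling, which sets the bulk of genes equal between libraries. Epithelial genes were present in every library, with a summed level of 8814 to 9729 CPM over 16 genes. Of 17 lung lineage genes, 3 reached 5 CPM on average, and NKX2-1, the lineage factor of lung adenocarcinoma, had 1 read in ADAR sgRNA 2 and none in the other libraries. The 9 immune cell markers summed to 1.49 to 4.54 CPM. The endothelial and fibroblast markers, of which 7 of 8 were found in the files, summed to 7.06 and 11.2 CPM in the GFP libraries and to 20.2 and 24.1 CPM in the ADAR libraries. Most of that was COL3A1, a collagen gene, which rose from 5.95 and 8.6 CPM to 17.5 and 21.1 CPM (adjusted p = 1.21e-05). VWF, KDR, CDH5, PDGFRB and DCN, defining genes of those cells, had at most 8 reads in any library, and the part of such cells in the results was not tested.

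ADAR itself is the check of the labels. The gene spans bases 154554171 to 154600489 of chromosome 1 (GRCh37, minus strand). The level was 621 CPM in GFP sgRNA 1, 760 CPM in GFP sgRNA 2, 296 CPM in ADAR sgRNA 1 and 268 CPM in ADAR sgRNA 2. Both ADAR libraries were below both GFP libraries, and the log2 fold change was -1.29 (SE 0.11, adjusted p = 6.63e-14). The counts sum all transcripts of the gene, so they do not separate its isoforms or edited from intact alleles. Of the 83 other protein-coding genes tested within 2 Mb of ADAR, 3 rose and 3 fell, with a median log2 fold change of -0.001. Those that rose were CRTC2, YY1AP1 and NPR1, a natriuretic peptide receptor (log2 fold change 0.47, 0.40 and 1.03). Those that fell were CKS1B, CCT3 and RPS27 (log2 fold change -0.48, -0.32 and -0.45).

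Across the transcriptome, rises outnumbered falls and were larger. Of 14530 genes tested, 898 were higher and 352 lower in the ADAR libraries at an adjusted p under 0.05 by edgeR's quasi-likelihood test. That is 6.18% of genes higher and 2.42% lower, and these shares are the background against which the counts of each gene list are read. The median log2 fold change was 0.66 among the genes that rose and -0.42 among those that fell. A log2 fold change of at least 1 in size was seen in 219 of the genes that rose and 15 of those that fell. With each library's trend with GC content and length removed, 823 genes were higher and 550 lower. In that fit the median log2 fold change was below 0 in every bin of genes by GC content, between -0.061 and -0.028. The libraries of the 2 targets did not overlap for 7332 of the 14530 genes tested (50.5%), in either direction, and for each of the 1250 that passed. DESeq2 called 342 genes higher and 71 lower. A fit of all 20 libraries, in which all lines share 1 estimate of the spread, called 157 higher and 2 lower, and these 2 were ADAR and SKP2. The number that fell was 52 without GFP sgRNA 1 and 167 without GFP sgRNA 2, and the number that rose was 490 and 408 without these and 551 without ADAR sgRNA 2.

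**Figure D1:**
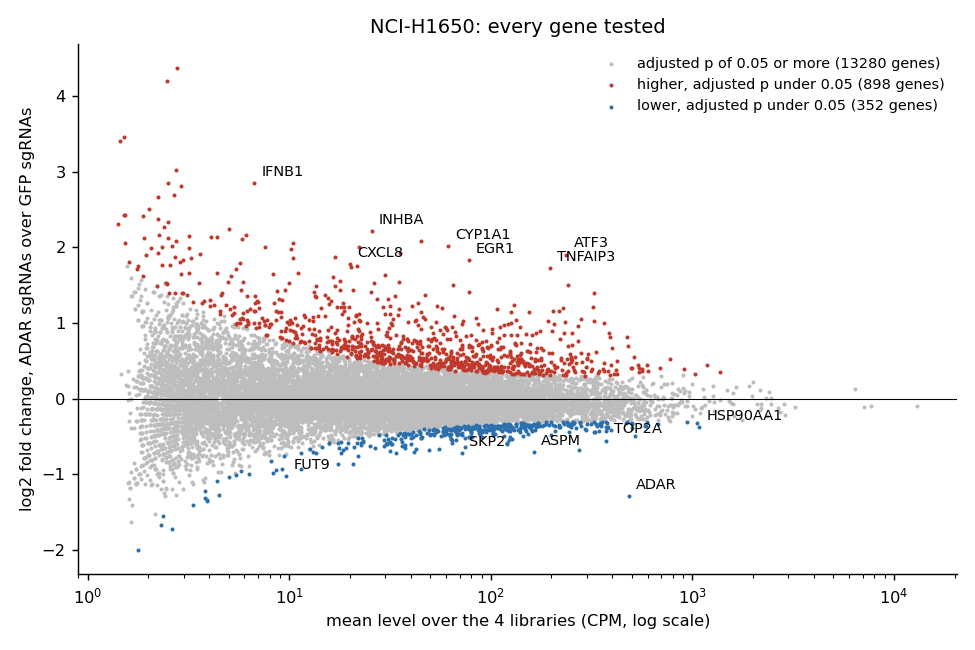
Each point is 1 of the 14530 genes tested in NCI-H1650, with its mean level over the 4 libraries in CPM on a log axis and the log2 fold change of ADAR over GFP sgRNAs; red genes rose and blue genes fell at an adjusted p under 0.05. ADAR stands apart below, at -1.29, and the rises (898 genes) reach further from 0 than the falls (352 genes).

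The promoters of 5 genes that rose are shown because each holds the binding motif of a pathway that the lists below describe. They were chosen after their values were seen. Each is the 250 bases before the start of the gene on its own strand, from RefSeq on GRCh38.p14, with matches to 1 motif in capitals. IFNB1 encodes interferon-β (chr9:21077943-21078192, minus strand) and CXCL2 a chemokine that attracts neutrophils (chr4:74099196-74099445, minus strand). In both, the capitals mark kappaB, the motif of NF-kB. CXCL10 encodes a chemokine induced by interferon (chr4:76023498-76023747, minus strand), and the capitals mark the interferon-stimulated response element (ISRE). EGR1 is a zinc finger factor of the immediate-early class (chr5:138465229-138465478, plus strand), with the CArG box of SRF in capitals. CHAC1, a glutathione-degrading enzyme induced by ATF4 (chr15:40953221-40953470, plus strand), has the ATF4-C/EBP composite TGATGNAA in capitals, here on the opposite strand.
IFNB1: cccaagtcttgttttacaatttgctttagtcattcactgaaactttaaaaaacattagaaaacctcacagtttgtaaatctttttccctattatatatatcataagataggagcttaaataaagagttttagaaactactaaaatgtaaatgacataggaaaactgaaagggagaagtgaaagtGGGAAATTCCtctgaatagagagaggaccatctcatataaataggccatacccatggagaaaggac
CXCL2: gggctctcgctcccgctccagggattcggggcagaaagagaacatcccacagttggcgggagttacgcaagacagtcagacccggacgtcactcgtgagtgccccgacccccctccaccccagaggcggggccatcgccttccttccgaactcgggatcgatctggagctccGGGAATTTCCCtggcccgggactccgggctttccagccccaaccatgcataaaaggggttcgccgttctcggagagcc
CXCL10: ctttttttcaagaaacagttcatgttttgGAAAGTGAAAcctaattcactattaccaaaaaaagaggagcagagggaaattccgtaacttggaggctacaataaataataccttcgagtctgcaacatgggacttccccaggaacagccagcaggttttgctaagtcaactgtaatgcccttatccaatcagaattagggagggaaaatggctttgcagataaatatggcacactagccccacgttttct
EGR1: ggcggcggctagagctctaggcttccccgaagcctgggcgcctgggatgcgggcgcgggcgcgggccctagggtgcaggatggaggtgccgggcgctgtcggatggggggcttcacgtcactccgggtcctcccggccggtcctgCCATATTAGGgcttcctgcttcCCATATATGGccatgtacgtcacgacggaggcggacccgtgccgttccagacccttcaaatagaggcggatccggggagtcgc
CHAC1: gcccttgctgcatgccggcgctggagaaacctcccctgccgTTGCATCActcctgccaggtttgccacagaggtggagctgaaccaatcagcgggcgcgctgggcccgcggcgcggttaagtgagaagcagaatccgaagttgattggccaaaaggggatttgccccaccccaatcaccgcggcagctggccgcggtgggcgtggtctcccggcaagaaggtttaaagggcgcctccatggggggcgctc

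The kappaB match of IFNB1 ended 57 bases before the start of the gene, and the overlapping kappaB matches of CXCL2 ended 69 and 68 bases before it. EGR1 had 2 CArG boxes in this window, ending 96 and 74 bases before the start. The same motifs were searched on both strands in the 300 bases around the start (250 before and 50 after) of the 10608 tested genes with a RefSeq promoter. The kappaB motif was found in 13.2% of all these promoters, 17.1% of those of genes that rose (114 of 665) and 9.15% of those of genes that fell (26 of 284). Among cytokines and chemokines that rose it was found in 6 of 8 promoters, and in 5 of 11 among NF-kB subunits and feedback genes that rose. Among all tested members of these lists, whether they rose or not, it was found in 8 of 12 and 6 of 14 promoters. The ATF4-C/EBP composite was found in 1.66% of all promoters, in 2.86% of those that rose and in 0 of 284 of those that fell. The ISRE was found in 2.72% of all promoters, 4.21% of those that rose and 2.46% of those that fell. The E2F motif TTTNNCGC, with C or G at each N, was found in 5.41% of all promoters, 3.76% of those that rose and 10.9% of those that fell. The cyclic AMP response element TGACGTCA was found in 3.34%, 4.21% and 2.82% of these promoters, in the same order, and the E-box CACGTG in 9.87%, 9.77% and 10.2%. The CArG box was found in 1.03%, 1.65% and 0.704%, and the heat shock element GAANNTTC in 4.58%, 5.11% and 3.87%. The sterol response element TCACNCCAC was found in 1.05%, 1.05% and 0.704% of them. These shares describe letters in a window, and no test was run on them.

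The interferon genes were among the largest rises in this line. Of 12 interferons, receptors and regulators tested, 6 rose and none fell, with a median log2 fold change of 0.38 beside 0.01 for all genes tested. The number that rose was 4 by DESeq2, in the fit of all 20 libraries and with the GC and length trend removed. IFNB1 stood at 1.32 and 1.91 CPM with the GFP sgRNAs and at 11 and 12.6 CPM with the ADAR sgRNAs (log2 fold change 2.85, SE 0.35, adjusted p = 1.92e-08). IFNL1, a type III interferon, went from 7.06 and 10.5 CPM to 32.3 and 38.4 CPM (2.01, SE 0.20, adjusted p = 2.75e-11). Both interferons were higher in each ADAR library than in either GFP library, which held for every gene that rose. The margin was larger than the spread between sgRNAs. IFNL3 went from 2.21 and 2.15 CPM to 8.36 and 10.7 CPM and IFNL2 from 1.54 and 1.43 CPM to 5.57 and 7.9 CPM (adjusted p = 1.3e-05 and 0.000179). IFNL2 and IFNL3 are near-identical copies, so the split of reads between them is uncertain. The receptors did not pass the test, with IFNAR1 at 87.3 and 90.8 CPM against 79.9 and 81.8 CPM (adjusted p = 0.532) and IFNLR1 at 15.2 and 13.4 CPM against 12.1 and 15.4 CPM (adjusted p = 0.899). The receptor kinases JAK1 and TYK2 rose slightly, with log2 fold changes of 0.31 and 0.33 (adjusted p = 0.0373 and 0.0426). SOCS1 and SOCS3, which restrain interferon and cytokine receptors, stood at 0.53 and 0.44 (adjusted p = 0.23 and 0.0583).

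ISGs had smaller values than the interferon genes. Of 53 tested, 10 rose and 1 fell, with a median log2 fold change of 0.21, and the number that rose lay between 7 and 13 with each library left out. In the fit of all 20 libraries none passed. CXCL11 and CXCL10, chemokines that attract T cells, led the list. CXCL11 went from 2.21 and 2.87 CPM to 7.06 and 10.7 CPM (log2 fold change 1.79, SE 0.35, adjusted p = 0.000229), and CXCL10 from 3.09 and 1.91 CPM to 5.76 and 9.18 CPM (1.54, SE 0.37, adjusted p = 0.00317). RSAD2, the antiviral enzyme viperin, went from 209 and 194 CPM to 308 and 378 CPM (0.77, adjusted p = 3.1e-07). ISG15, a ubiquitin-like modifier, went from 322 and 286 CPM to 453 and 389 CPM (0.47, adjusted p = 0.00139). USP18, which removes ISG15, DDX60, ISG20, OASL, GBP1 and IFIT2 rose, with log2 fold changes of 0.70, 0.60, 0.53, 0.52, 0.36 and 0.35. MX1, a GTPase that blocks viruses, stood at 146 and 368 CPM with the GFP sgRNAs and at 348 and 337 CPM with the ADAR sgRNAs (adjusted p = 0.0946). Its value in GFP sgRNA 2 was above those of the ADAR libraries, so the groups overlapped. SAMD9L, an antiviral factor, was the member that fell, from 58.4 and 64.3 CPM to 42.2 and 49.1 CPM (adjusted p = 0.0306).

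Among 18 genes of double-stranded RNA sensing and binding, 5 rose and 1, ADAR, fell. DHX58, which encodes the RIG-I-like protein LGP2, rose from 27.8 and 33.7 CPM to 58.9 and 68.3 CPM (log2 fold change 1.05, SE 0.14, adjusted p = 2.13e-07). IKBKE, a kinase of IRF3, rose from 14.8 and 14.3 CPM to 28.6 and 31.4 CPM (1.04, SE 0.18, adjusted p = 2.65e-05). TICAM1, the adaptor of TLR3, rose by 0.72 on the log2 scale, RIGI by 0.39 and IFIH1, which encodes MDA5, by 0.37. The number that rose was 3 without ADAR sgRNA 2 and 2 without GFP sgRNA 2. EIF2AK2, which encodes PKR, stood at 147 and 194 CPM against 133 and 139 CPM (log2 fold change -0.33, adjusted p = 0.0561). With a filter at 1 CPM or with protein-coding nuclear genes only, 2 genes of the list fell. In both fits 1 of the eIF2 kinases and phosphatase subunits fell as well, and EIF2AK2 is the member that these lists share. MAVS, TBK1 and TLR3 had log2 fold changes of -0.11, -0.05 and -0.02, and none passed the test. ADARB1, the other active editing enzyme, stood at 17.6 and 21.7 CPM against 21.5 and 18.8 CPM (adjusted p = 0.932). Of 16 genes of antigen presentation by MHC class I, 5 rose, among them CD274, HLA-F, HLA-B and HLA-E, with log2 fold changes of 0.77, 0.65, 0.44 and 0.31. CD274 encodes PD-L1, a ligand that restrains T cells. The HLA genes are similar in sequence, so their reads can be shared, and HLA-E and HLA-F did not pass once the GC and length trend was removed (adjusted p = 0.15 and 0.0703). In the fit of all 20 libraries none of the list passed, and the count was 1 without GFP sgRNA 1 and 2 without each of the other libraries.

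NF-kB genes rose together. Of 16 subunits and feedback genes, 13 rose and none fell, with a median log2 fold change of 0.75, and 8 still passed in the fit of all 20 libraries. TNFAIP3, the ubiquitin-editing enzyme A20 that shuts NF-kB off, went from 108 and 73.8 CPM to 277 and 328 CPM (1.73, SE 0.12, adjusted p = 4.06e-16). TRAF1, an adaptor of TNF receptors, went from 19.6 and 16.2 CPM to 49.4 and 55.5 CPM (1.54, SE 0.16, adjusted p = 1.43e-10). NFKBIE and NFKBIA, inhibitors that hold NF-kB in the cytoplasm, had log2 fold changes of 1.53 and 0.69. Among the subunits, RELB rose from 100 and 74.8 CPM to 175 and 187 CPM, NFKB2 from 271 and 213 CPM to 475 and 499 CPM and NFKB1 from 80.5 and 79.3 CPM to 134 and 145 CPM. The GFP libraries differed from each other by less than the ADAR libraries differed from them for each of these 3 subunits. RELA and REL stood at 0.31 and 0.42 on the log2 scale and did not pass (adjusted p = 0.0753 and 0.118). CYLD, which trims ubiquitin chains, and BIRC3 rose by 1.03 and 0.90 on the log2 scale.

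Secreted signals rose as well. Of 25 cytokines and chemokines, 17 were tested, 12 of them rose and none fell, with a median log2 fold change of 1.04. CXCL8 went from 10.4 and 7.64 CPM to 25.6 and 36.9 CPM (1.78, SE 0.21, adjusted p = 3.85e-09). CXCL2 went from 4.41 and 3.58 CPM to 14.7 and 19 CPM (2.06, SE 0.27, adjusted p = 8.35e-08) and CXCL1 from 3.09 and 2.87 CPM to 10.4 and 13.9 CPM (2.01, SE 0.31, adjusted p = 3.13e-06). These 3 chemokines bind the receptors of neutrophils. Their values in the ADAR libraries were all above those in the GFP libraries, which held for every gene that rose. IL6 went from 142 and 109 CPM to 260 and 301 CPM (1.15, SE 0.11, adjusted p = 1.91e-11), and its antisense gene IL6-AS1 from 2.87 and 2.15 CPM to 8.91 and 6.62 CPM (adjusted p = 0.00112). Whether counting used the strand is not stated, so reads of IL6 and IL6-AS1 may not be separated. CCL5, a chemokine of T cells, rose from 434 and 399 CPM to 611 and 608 CPM (0.55, adjusted p = 7.46e-05). IL18, CSF1, LIF and IL11 rose by 0.71, 0.89, 0.77 and 0.76 on the log2 scale. CXCL3 and IL32 passed at low counts, CXCL3 with 2 and 4 reads in the GFP libraries and IL32 with 7 and 4. TNF and CCL2 had at most 3 reads in any library and were not tested. In the fit of all 20 libraries 5 of the 12 passed.

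**Figure D2:**
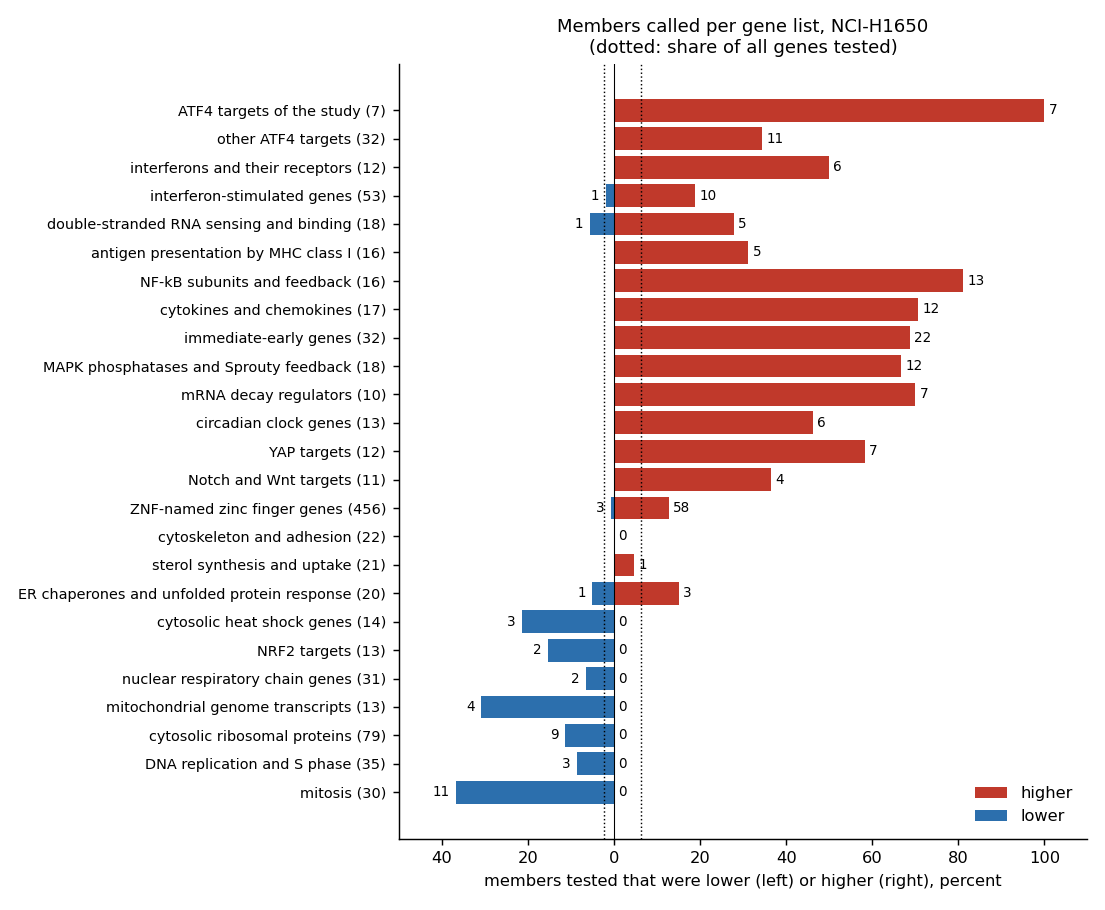
For 25 gene lists, with the number of members tested in brackets, bars give the percent of tested members that were higher (red, right) or lower (blue, left) in the ADAR libraries, with the number beside each bar. Dotted lines mark the shares among all 14530 genes, 6.18% higher and 2.42% lower; NF-kB genes (13 of 16) and immediate-early genes (22 of 32) lie far to the right of the line and mitosis genes (11 of 30) to the left.

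Immediate-early genes rose in most cases. All 32 tested had a log2 fold change above 0, 22 rose, none fell, and 19 of them passed in the fit of all 20 libraries. The median log2 fold change was 0.99. The EGR, KLF and NR4A factors stood highest, with 10 of 11 up and a median of 1.74. EGR1 went from 37.3 and 30.8 CPM to 102 and 141 CPM (1.83, SE 0.14, adjusted p = 4.76e-15). NR4A3, an orphan nuclear receptor, went from 12.6 and 17 CPM to 48.3 and 63.6 CPM (1.92, SE 0.17, adjusted p = 1.38e-12), and NR4A1 from 21.6 and 22.5 CPM to 50.7 and 43.6 CPM (1.10, adjusted p = 4.63e-07). EGR4, of the same family as EGR1, went from 9.04 and 5.25 CPM to 26.6 and 26.3 CPM (1.87, adjusted p = 3.83e-09). EGR2 rested on 1 and 4 reads in the GFP libraries and 25 and 24 reads in the ADAR libraries. For none of these genes did the libraries of the 2 targets overlap. The same held for each of the 1250 genes that passed and for 50.5% of all genes tested. KLF2 was the 1 member of its class that did not pass (adjusted p = 0.122).

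Of the 7 AP-1 subunits, which pair into dimers that bind DNA, 5 rose. FOS went from 15.2 and 13.9 CPM to 39.2 and 51.9 CPM (1.64, SE 0.17, adjusted p = 2.58e-10) and JUN from 209 and 177 CPM to 423 and 473 CPM (1.21, SE 0.11, adjusted p = 6.14e-13). FOSB and FOSL1 had log2 fold changes of 1.38 and 0.72. JUNB stood at 0.31 (adjusted p = 0.057). MYC, the growth-promoting factor, went from 125 and 113 CPM to 208 and 226 CPM (0.86, adjusted p = 1.72e-08), and MAFF rose by 1.23 on the log2 scale. ARC rose from 8.38 and 9.32 CPM to 27.5 and 22.2 CPM (adjusted p = 3e-07). IER3, SGK1 and MCL1 did not pass, with log2 fold changes of 0.15, 0.13 and 0.25. The 14 members outside the AP-1, EGR, KLF and nuclear receptor classes had a median of 0.42 with 7 up.

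Feedback genes of MAP kinase signalling rose beside them. Of 18 phosphatases and Sprouty-class genes, 12 rose, none fell, and the median log2 fold change was 0.59. In the fit of all 20 libraries 3 passed. DUSP5, a nuclear phosphatase of ERK, went from 95 and 96.5 CPM to 172 and 197 CPM (0.94, SE 0.11, adjusted p = 3.8e-09). DUSP6, its cytoplasmic counterpart, went from 13.2 and 8.36 CPM to 25.4 and 25.2 CPM (1.22, SE 0.20, adjusted p = 1.32e-05). DUSP1 and PHLDA1 rose by 0.72 and 0.73 on the log2 scale. EGFR, the receptor tyrosine kinase upstream of this pathway, stood at 966 and 947 CPM against 909 and 957 CPM (adjusted p = 0.883). Its ligands AREG and HBEGF rose, AREG from 13.7 and 9.32 CPM to 24.1 and 26.3 CPM (1.12, adjusted p = 4.4e-05) and HBEGF from 45.4 and 32.5 CPM to 70.8 and 76 CPM (0.91, adjusted p = 2.64e-06). EREG, another ligand, passed on 3 and 1 reads in the GFP libraries and 12 reads in each ADAR library.

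**Figure D3:**
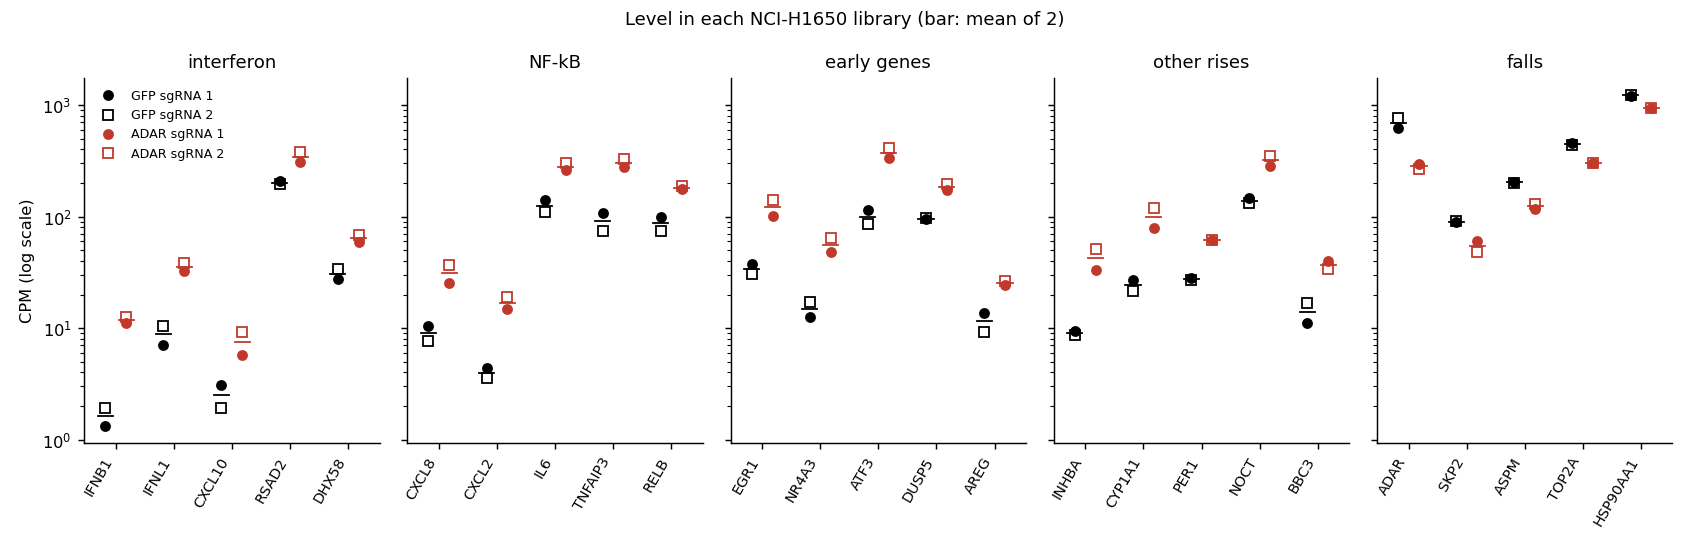
The level in CPM on a log axis of 25 genes in each NCI-H1650 library, black for GFP and red for ADAR sgRNAs, with filled circles for sgRNA 1, open squares for sgRNA 2 and a bar at the mean of the 2. All 25 passed the test, and in each both red points lie on the same side of both black points, which holds for each of the 1250 genes that passed, as for IFNB1 at 11 and 12.6 CPM against 1.32 and 1.91 CPM.

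Some of the listed target genes of ATF4 rose. The 7 ATF4 targets that the study itself picked all rose, which is no independent evidence of their direction. A further 33 targets were listed here, also with earlier results of these data known, so they are not independent either. Of the 32 tested, 11 rose and none fell, with a median log2 fold change of 0.25, and 1 passed in the fit of all 20 libraries. ATF3, a repressor of the same family and one of the 7, went from 114 and 85.7 CPM to 332 and 416 CPM (1.91, SE 0.12, adjusted p = 3.6e-18). By role, regulators gave 7 rises of 12, amino acid transporters 2 of 9 and genes of amino acid and one-carbon synthesis 2 of 11. CHAC1 went from 30.4 and 25.1 CPM to 57 and 57.9 CPM (1.05, SE 0.15, adjusted p = 3.34e-07) and SESN2, which restrains mTORC1, from 84.5 and 67.1 CPM to 135 and 158 CPM (0.95, adjusted p = 2.22e-08). DDIT4, another restraint on mTORC1, and CEBPB rose by 0.87 and 0.70 on the log2 scale. The cystine transporter SLC7A11 stood at 153 and 97 CPM against 116 and 157 CPM and the leucine transporter SLC7A5 at 1596 and 1169 CPM against 1374 and 1359 CPM, with overlapping groups (adjusted p = 0.647 and 0.953). Of this list 7 passed once the GC and length trend was removed, and 6 passed without either of the GFP libraries.

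ASNS, asparagine synthetase, was the lowest of the 7, from 128 and 105 CPM to 159 and 178 CPM (0.53, adjusted p = 0.000707). The pseudogene ASNSP1 went from 11.5 and 10.7 CPM to 25.8 and 34.8 CPM (1.44, adjusted p = 1.7e-07), and since it resembles ASNS its reads are uncertain. The mRNA of ATF4 stood at 287 and 291 CPM against 332 and 345 CPM (0.23, adjusted p = 0.158). Of the other eIF2 kinases and phosphatase subunits only PPP1R15A, which directs the phosphatase to eIF2α and is one of the 7, passed (1.16, adjusted p = 2.11e-12). EIF2AK1, EIF2AK3 and EIF2AK4 had log2 fold changes of -0.02, -0.03 and 0.12, EIF2S1 of -0.24 and PPP1R15B of 0.24. Of 20 cytosolic tRNA synthetases, which charge tRNAs with amino acids, 4 rose, namely CARS1, YARS1, AARS1 and MARS1 (0.60, 0.47, 0.45 and 0.37), and FARSB fell (-0.39). None rose without GFP sgRNA 2 or in the fit of all 20 libraries, and FARSB passed neither by DESeq2 nor without ADAR sgRNA 1, GFP sgRNA 1 or GFP sgRNA 2.

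The unfolded protein response of the endoplasmic reticulum had few changes. Of 20 genes, 3 rose and 1 fell, and the median log2 fold change was -0.14. The 3 that rose became 1 without ADAR sgRNA 2, GFP sgRNA 1 or GFP sgRNA 2, and by DESeq2. XBP1, its transcription factor, went from 175 and 153 CPM to 284 and 312 CPM (0.86, SE 0.11, adjusted p = 1.36e-08). ERN1, the kinase IRE1 that splices XBP1, and HERPUD1 rose by 0.47 and 0.40 on the log2 scale. The main chaperone HSPA5 stood at 908 and 868 CPM against 936 and 938 CPM (adjusted p = 0.714), and HSP90B1 fell from 599 and 537 CPM to 439 and 429 CPM (-0.39, adjusted p = 0.00737). Cytosolic heat shock genes had 0 of 14 up and 3 down. HSPE1 went from 39 and 32.7 CPM to 23.4 and 23.3 CPM (-0.62, SE 0.16, adjusted p = 0.00691), HSP90AA1 from 1207 and 1230 CPM to 937 and 941 CPM and DNAJA1 from 361 and 362 CPM to 283 and 301 CPM. HSPA1A and HSPA1B, copies whose reads can be shared, had log2 fold changes of -0.09 and 0.02. None of these heat shock genes passed without GFP sgRNA 1 and 1 passed without GFP sgRNA 2.

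Several genes outside these lists or in short ones rose by as much. INHBA, which forms activin A, went from 9.48 and 8.6 CPM to 33.1 and 51.7 CPM (2.21, SE 0.20, adjusted p = 2.11e-12). CYP1A1, an oxidase of aromatic compounds, went from 26.9 and 21.5 CPM to 78.9 and 119 CPM (2.02, SE 0.16, adjusted p = 5.77e-15). TIPARP, like CYP1A1 a target of the aryl hydrocarbon receptor, went from 226 and 140 CPM to 329 and 432 CPM (1.05, adjusted p = 9.87e-09), but CYP1B1 stood at 531 and 312 CPM against 378 and 479 CPM and AHRR at 20.5 and 21.3 CPM against 20.2 and 22.6 CPM (adjusted p = 0.953 and 0.945). NQO1, also an NRF2 target, fell from 408 and 292 CPM to 290 and 264 CPM (-0.34, adjusted p = 0.0465), and CYP1A2 and ALDH3A1 had at most 2 reads. NEURL3, an E3 ligase, went from 17.9 and 16.7 CPM to 70.6 and 76.2 CPM (2.08, SE 0.15, adjusted p = 9.8e-16). CH25H, which makes 25-hydroxycholesterol, RND1, a small GTPase, and MEX3B, an RNA-binding protein, had log2 fold changes of 2.24, 2.17 and 1.97. SNAI2, a repressor of epithelial genes, went from 4.19 and 4.78 CPM to 15.4 and 17.3 CPM (1.86, SE 0.26, adjusted p = 3.84e-07). With COL3A1 it made 2 of 13 mesenchymal genes that rose, and SPARC fell (-0.44). Of the 15 epithelial genes 3 rose, GRHL2, ELF3 and OVOL1 (0.59, 0.56 and 0.49), and none fell.

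Regulators of mRNA decay, clock genes and YAP targets also had more rises than the background. Of 10 genes of mRNA decay 7 rose, led by NOCT, a clock-linked phosphatase, from 146 and 132 CPM to 286 and 352 CPM (1.20, SE 0.11, adjusted p = 2.02e-12). BTG1, ZC3H12A and ZFP36, which speed the decay of short-lived mRNAs, rose by 0.85, 0.67 and 0.46 on the log2 scale. The count was 2 without GFP sgRNA 1 and 3 without GFP sgRNA 2. Of 13 circadian clock genes 6 rose. PER1 went from 28.4 and 27.2 CPM to 61.8 and 61.9 CPM (1.15, SE 0.14, adjusted p = 1.72e-08), NR1D1 and BHLHE41 had log2 fold changes of 1.21 and 1.32, and the activators CLOCK and BMAL1 stood at -0.33 and 0.35 (adjusted p = 0.118 and 0.276). Of 12 YAP targets 7 rose, led by ANKRD1 from 11 and 8.6 CPM to 28.4 and 38.4 CPM (1.75, SE 0.20, adjusted p = 1.79e-09), and NUAK2 rose by 1.10 on the log2 scale. The count was 4 without GFP sgRNA 2. CCN1 and CCN2, the targets most often used to read YAP, had log2 fold changes of 0.20 and 0.11 and did not pass. Of 11 Notch and Wnt targets 4 rose (HES1, HES4, RNF43 and JAG1, with 0.94, 0.77, 0.75 and 0.51), and of 13 TGF-beta and BMP targets 3 rose (INHBA, BAMBI and ID3, the last with 0.80 and 0.44).

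Death genes changed at a few points. Of 14 BCL2 family genes 3 rose. They were among the 11 tested that trigger apoptosis, and only 3 members that guard against it were tested. BBC3, which encodes PUMA, went from 11.2 and 16.7 CPM to 39.7 and 33.7 CPM (1.41, SE 0.18, adjusted p = 5.47e-08), HRK from 10.4 and 12.2 CPM to 22.1 and 30.3 CPM (1.21, adjusted p = 1.3e-05) and PMAIP1, which encodes NOXA, from 132 and 107 CPM to 156 and 180 CPM (0.49, adjusted p = 0.00215). Of 14 death receptors and their partners 2 rose, TNFRSF10B, a receptor of TRAIL, and TNFRSF12A (0.57 and 0.49), and neither passed without GFP sgRNA 2 or with all 20 libraries. Of 19 p53 targets 3 rose, BBC3, GDF15 (1.08) and AEN (0.57). The p53 targets CDKN1A and MDM2 stood at 308 and 268 CPM against 344 and 328 CPM and at 151 and 170 CPM against 180 and 215 CPM (adjusted p = 0.183 and 0.0761). Of 14 autophagy and lysosome genes 4 rose, GABARAPL1 (0.75), SQSTM1 (0.71), ULK1 (0.44) and MAP1LC3B (0.39), and LAMP2 fell (-0.37). Of the autophagy genes 2 rose without GFP sgRNA 2, and LAMP2 did not pass without ADAR sgRNA 1, GFP sgRNA 1 or GFP sgRNA 2.

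Among the gene lists, falls made up the highest share in mitosis. Of 30 mitosis genes 11 fell and none rose, and the median log2 fold change was -0.31. ASPM, a spindle pole protein, went from 203 and 202 CPM to 118 and 129 CPM (-0.71, SE 0.11, adjusted p = 1.3e-06) and CENPF, a kinetochore protein, from 349 and 327 CPM to 213 and 208 CPM (-0.68, SE 0.10, adjusted p = 1.54e-06). TOP2A, which untangles DNA, went from 454 and 439 CPM to 305 and 303 CPM (-0.56, adjusted p = 6.32e-05), and KIF11, the spindle motor, from 156 and 135 CPM to 93.2 and 98.4 CPM (-0.60, adjusted p = 8.89e-05). MKI67, the antigen Ki-67, and CDK1 fell by 0.49 and 0.51 on the log2 scale. CCNB1, PLK1 and BUB1 stood at -0.19, -0.21 and -0.20 and did not pass. The mitosis genes had a median exon GC content of 42.6% beside 48.7% for all genes tested. Of the 30, 16 fell once each library's trend with GC and length was removed. In that fit all bins of genes by GC content had medians below 0, and the part of this in the count was not tested. In the fit of all 20 libraries none passed, and 6 passed without GFP sgRNA 1. In RNA from whole cultures, fewer dividing cells and less of these RNAs in each cell cannot be told apart.

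DNA replication gave fewer falls. Of 35 genes 3 fell, RFC3, PCNA, the sliding clamp, and RRM2, which makes deoxynucleotides (-0.66, -0.54 and -0.37), and the median was -0.11. The number that fell was 1 without GFP sgRNA 2, 0 with all 20 libraries and 5 with the GC and length trend removed. SKP2, a ubiquitin ligase subunit that degrades CDK inhibitors, also passed with all 20 libraries (adjusted p = 0.0407). SKP2 went from 88.9 and 90.8 CPM to 60 and 48.3 CPM (-0.73, SE 0.13, adjusted p = 2.8e-05). PBK, SPC25, MND1 and PCLAF, all genes of dividing cells, fell by 0.87, 0.93, 0.95 and 0.72 on the log2 scale. SNRPE, a core protein of spliceosomal snRNPs, went from 40.4 and 44.2 CPM to 26.2 and 25 CPM (-0.72, adjusted p = 0.000739). Other large falls were FUT9 (10.6 and 15.5 CPM to 7.06 and 5.55 CPM, adjusted p = 0.00594), CDON, CEP126, ST6GAL1, TEX15, TRIQK, ARL3 and FABP5, with log2 fold changes between -1.03 and -0.71. None of 12 cyclins, CDKs and CDK inhibitors of G1 passed, and 1 of 20 replication-dependent histones, H1-5, fell (-0.42). The histones are near-copies of each other, so their counts are uncertain.

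Some genes of protein and energy supply fell by small amounts. Of 79 cytosolic ribosomal proteins 9 fell and none rose, the median was -0.20, and 3 had a log2 fold change above 0. RPL6 went from 458 and 442 CPM to 360 and 313 CPM (-0.42, adjusted p = 0.00384). Many processed copies of these genes exist, so their counts are uncertain, and the number that fell was 0 without GFP sgRNA 1, 3 without ADAR sgRNA 2 or GFP sgRNA 2, 21 without ADAR sgRNA 1 and 25 with the GC and length trend removed. All 13 mitochondrial genome transcripts had values below 0, with a median of -0.28, and 4 fell, MT-CYB, MT-ND4, MT-CO3 and MT-ND5 (-0.36, -0.33, -0.33 and -0.31). Their count was 0 without ADAR sgRNA 1, 0 without GFP sgRNA 1 and 0 by DESeq2. Of 31 nuclear respiratory chain genes 2 fell, COX6C and CYCS, which encodes cytochrome c (-0.40 and -0.38). Neither passed without GFP sgRNA 1 or without GFP sgRNA 2. Of 22 ribosome biogenesis genes DKC1 and NPM1 fell (-0.38 and -0.31) and RRP12 rose (0.34), and none of these 3 passed without GFP sgRNA 1 or without GFP sgRNA 2. Of 14 snoRNA host genes 4 rose, EPB41L4A-AS1, SNHG12, SNHG8 and SNHG15 (0.70, 0.70, 0.53 and 0.45). The snoRNA host count was 1 without GFP sgRNA 2 and by DESeq2, 2 without GFP sgRNA 1 or ADAR sgRNA 2 and 0 with all 20 libraries.

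The remaining lists had few calls. None of 22 cytoskeleton and adhesion genes passed, and the median was 0.04. Sterol synthesis gave 1 of 21 (HMGCS1, 0.42) and fatty acid synthesis 1 of 12 (ACSS2, 0.44). Hypoxia and glycolysis genes gave 2 of 23 (PFKFB3 and KDM3A, 0.49 and 0.35). None of these 4 genes passed without GFP sgRNA 1 or without GFP sgRNA 2. Of 13 NRF2 targets 2 fell (GCLM and NQO1, -0.42 and -0.34), and none did without GFP sgRNA 1. None of 3 metallothioneins tested passed: MT2A stood at 247 and 240 CPM against 241 and 158 CPM, and MT1E and MT1F were under 5 CPM. Of 5 lung lineage genes tested none passed.

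Genes named ZNF, many of which encode repressors with a KRAB domain, had more rises than all genes by edgeR's test but not by DESeq2. Of 456 tested 58 rose (12.7% beside 6.18% of all genes) and 3 fell, with a median log2 fold change of 0.16. ZNF608, ZNF844 and ZNF670 rose by 1.36, 1.02 and 1.10 on the log2 scale. By DESeq2 8 rose, 1.78% of those with an adjusted p beside 2.45% of all genes, and in the fit of all 20 libraries 4 rose, 0.842% beside 0.804%. The count was 25 without ADAR sgRNA 2, 22 without GFP sgRNA 1 and 20 without GFP sgRNA 2. Genes that rose lay on chromosome 19, which holds many of these genes, in 10.8% of cases, beside 7.36% of all genes tested and 0.568% of genes that fell. The parts of ZNF genes and of base composition, described below, in these shares were not tested. By class, 821 of the 898 rises and 337 of the 352 falls were protein-coding, and 45 and 9 were long noncoding RNAs. Besides IL6-AS1 and ASNSP1, the noncoding gene FLJ20021 rose, and the largest falls outside protein-coding genes were PPP4R2P1, POLR2J4 and LINC03061, with 3.16 to 36.2 CPM in the 4 libraries.

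The base composition of the genes moved with the comparison. The median exon GC content was 52.2% in genes that rose, 39.9% in genes that fell and 48.7% in all genes tested. Of 10 bins of genes by GC content, the lowest held 44 genes that rose and 118 that fell, and the highest held 119 that rose and 1 that fell. The trend was larger in ADAR sgRNA 1, the library with the highest share of alignments that were not unique. Its median difference from the GFP mean, on the scale of log2(CPM + 1), ran from -0.22 in the lowest bin to 0.18 in the highest, whereas that of ADAR sgRNA 2 ran from -0.04 to 0.03. GC content and length accounted for 16.3% of the variance of the deviation of ADAR sgRNA 1, 1.17% of that of ADAR sgRNA 2, 6.03% of that of GFP sgRNA 1 and 0.723% of that of GFP sgRNA 2. Of the 823 genes that rose and the 550 that fell with these trends removed, 738 and 282 were among the 898 and 352 above. The NF-kB count was then 13, the immediate-early count 22 and the cytokine count 11. In the fit with offsets the median log2 fold change was below 0 in every bin, between -0.061 and -0.028. Without offsets it was -0.146 in the lowest bin and 0.107 in the highest. The part of this shift in the counts of falls was not tested. Beyond these offsets, the part of the GC trend in the comparison was not tested either.

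**Figure D4:**
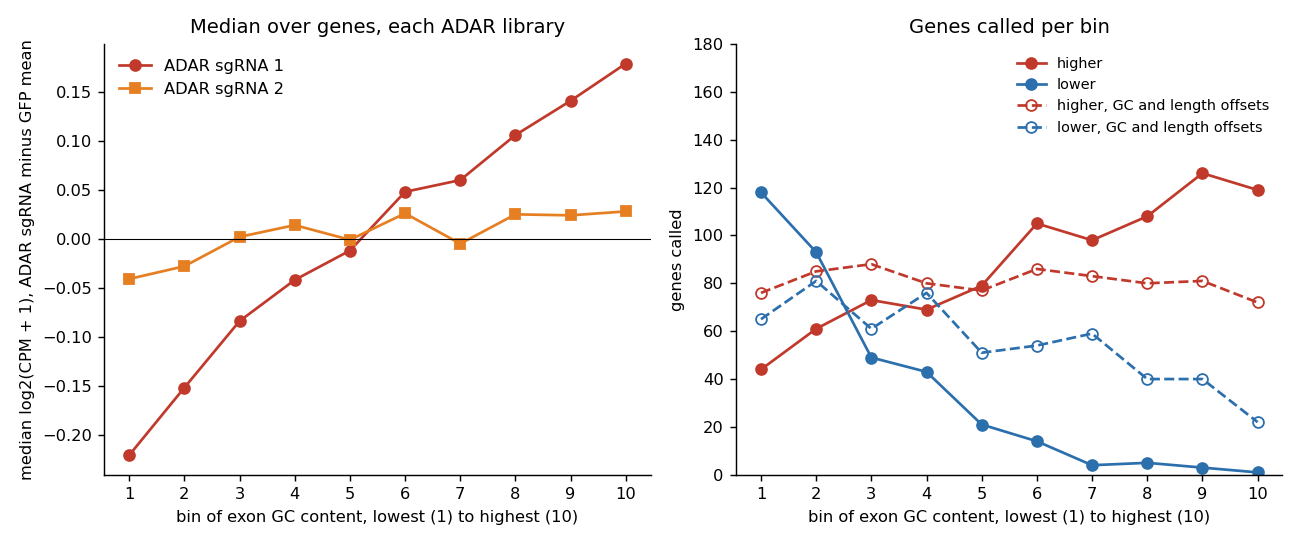
Genes were split into 10 bins of exon GC content, from lowest to highest. On the left, the median difference of each ADAR library from the mean of the GFP libraries, log2(CPM + 1), runs from -0.22 to 0.18 for ADAR sgRNA 1 and from -0.04 to 0.03 for ADAR sgRNA 2; on the right, solid lines count genes higher (44 to 119 from the first to the last bin) and lower (118 to 1), and dashed lines give the same counts with offsets for GC content and length (76 to 72 and 65 to 22).

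NCI-H1650 was then set against the other lines by testing the difference of the knockout effects, with separate GFP controls in each line. The A549 cells were also handled differently before RNA, so effects of line and of handling cannot be told apart in that comparison. Against A549 with vehicle the effects differed in many genes, with the value in NCI-H1650 above that in A549 in 325 of 16347 genes (1.99%) and below it in 162 (0.991%). ADAR was not among them, with a log2 fold change of -1.09 in A549 and a difference of -0.20 (SE 0.16, adjusted p = 0.608). Of 16 NF-kB genes, 10 had a larger effect in NCI-H1650 and none a smaller one. TNFAIP3 stood at 12.7 and 14.9 CPM with GFP and 15.7 and 18.6 CPM with ADAR sgRNAs in A549, and the difference of the effects was 1.43 (SE 0.21, adjusted p = 3.31e-05). Of 18 cytokines and chemokines, 10 differed the same way. CXCL2, at 24.4 and 24.7 CPM against 25.6 and 24.1 CPM in A549, had a difference of 2.04 (SE 0.31, adjusted p = 6.41e-05). Immediate-early genes gave 14 of 32 in this direction, NR4A3 with a difference of 2.02 among them, but not EGR1, which went from 0.931 and 0.391 CPM to 2.29 and 5.84 CPM in A549 (difference -1.01, adjusted p = 0.379). IFNB1, IFNL2 and IFNL3 had no read in any of these A549 libraries, so no difference is given for them.

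The falls differed from A549 as well. Of 30 mitosis genes, 10 had a lower effect in NCI-H1650, and the median log2 fold change over the list was 0.06 in A549. ASPM stood at 207 and 202 CPM against 211 and 221 CPM there, a difference of -0.79 (SE 0.13, adjusted p = 0.000102). SKP2 and SNRPE differed by -0.81 and -1.03 (adjusted p = 0.00185 and 0.000601). Ribosomal proteins gave 15 of 79 below, with a median of 0.10 in A549. Of the 54 ISGs tested, ISG20 was the 1 that differed (1.33, adjusted p = 0.000601). Its log2 fold change in NCI-H1650 was 0.53, smaller than the difference, so that in A549 was below 0. The total of 487 genes was 246 without A549 ADAR sgRNA 2, 250 without NCI-H1650 ADAR sgRNA 2, 311 without A549 GFP sgRNA 2, 318 without NCI-H1650 GFP sgRNA 1 and 1 in the fit of all 20 libraries.

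The number of genes that differed from the other 2 lines depended on the fit. Against HCC366, 0 of 15406 genes were above (0%) and 1 below (0.00649%) by edgeR's test, with 1851 genes at an unadjusted p under 0.05 and 87 differences by DESeq2. In the fit of all 20 libraries 432 genes differed from HCC366, beside 1 from A549 and 1 from NCI-H196. The HCC366 libraries held 1116439 to 3440707 reads, and 5057 genes differed without its ADAR sgRNA 1 and 230 without its ADAR sgRNA 2. In HCC366 ADAR sgRNA 2, 85.6% of alignments were not unique, beside 45.3% to 50.9% in the other libraries of that line. The shares above and below are therefore tied to these libraries. CXCL8 went from 37 and 36.2 CPM to 345 and 189 CPM in HCC366 (log2 fold change 2.87, adjusted p = 0.00129), beside 1.78 in NCI-H1650. TNFAIP3 had log2 fold changes of 1.98 in HCC366 and 1.76 in NCI-H196, and IL6 of 1.29 and 1.42. ATF3 went from 34.6 and 37.3 CPM to 466 and 800 CPM in HCC366, a log2 fold change of 4.13 beside 1.91 (difference -2.22, SE 0.40, adjusted p = 0.13). The median of the NF-kB list was 1.15 in HCC366, and that of the mitosis list was -0.78. These comparisons share the NCI-H1650 libraries.

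Against NCI-H196, 117 of 16195 genes were above (0.722%) and 140 below (0.864%), but DESeq2 called 0, and 1 GFP library of that line held 62679 reads. Without that library 216 genes differed, and without the other GFP library 3 did. The count was 59 and 151 without NCI-H196 ADAR sgRNA 2 and 1, and 143 without NCI-H1650 GFP sgRNA 2. ADAR fell less in NCI-H196, from 603 and 783 CPM to 518 and 437 CPM (log2 fold change -0.42, difference -0.87, SE 0.16, adjusted p = 6.9e-05). INHBA stood at 61.6 and 13.3 CPM against 55 and 60.7 CPM there, and its effect was larger in NCI-H1650 (difference 2.24, SE 0.25, adjusted p = 1.07e-13). The 13.3 CPM came from the GFP library with 62679 reads and so rests on few reads. EGR1 went the other way, with a log2 fold change of 3.34 in NCI-H196 beside 1.83 (difference -1.51, SE 0.23, adjusted p = 3.37e-07). Of 54 ISGs, 14 had a lower effect in NCI-H1650 and none a higher one, and the median log2 fold change of the list was 0.66 in NCI-H196. Mitosis genes fell in NCI-H196 as well, 11 of 30 with a median log2 fold change of -0.355. The 1 mitosis gene whose effect differed was CENPF, with a log2 fold change of 0.14 in NCI-H196 (difference -0.82, SE 0.16, adjusted p = 0.000293).

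**Figure D5:**
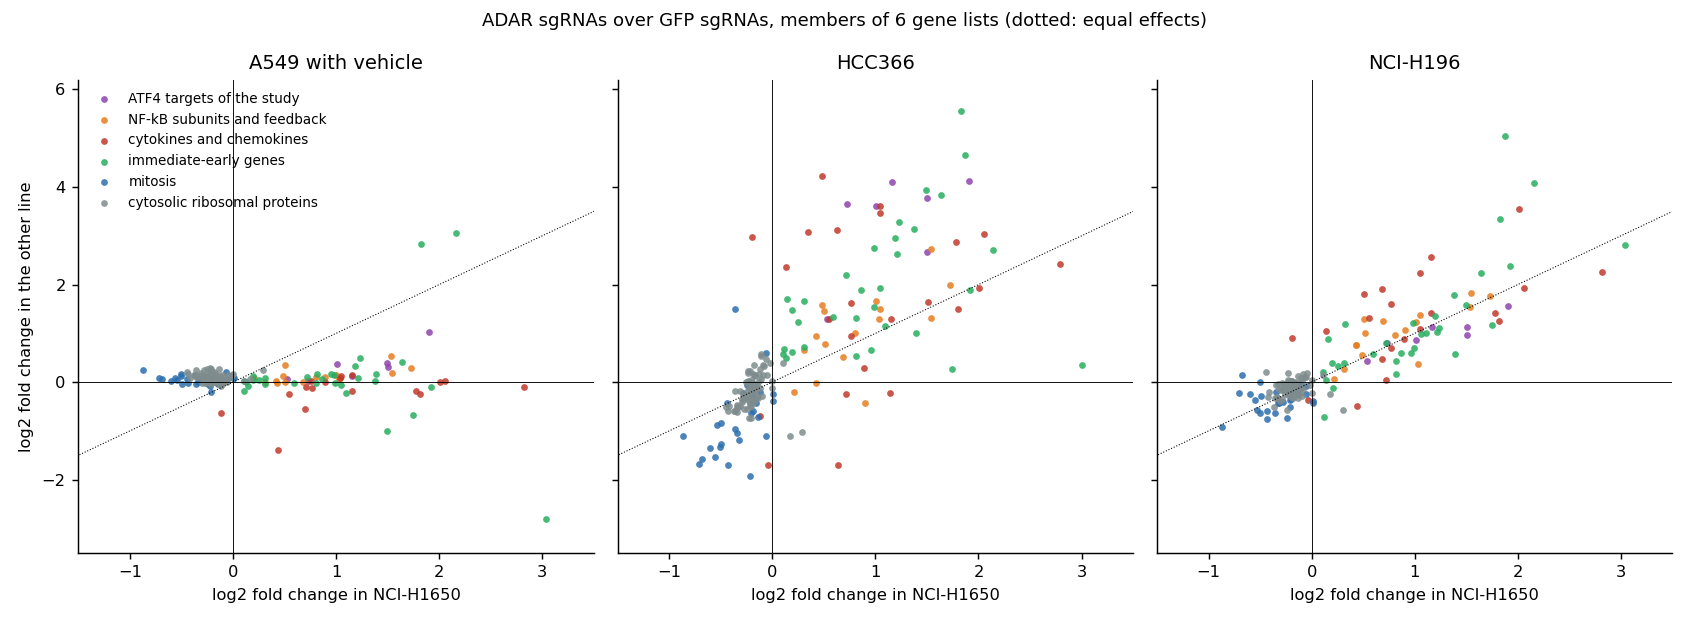
Members of 6 gene lists are placed by their log2 fold change after ADAR deletion in NCI-H1650 (horizontal) and in A549 with vehicle, HCC366 or NCI-H196 (vertical, 1 panel each), and the dotted line marks equal effects. In A549 most points lie near 0 on the vertical axis, with a median of 0.10 for the NF-kB list, whereas in HCC366 and NCI-H196 that list has medians of 1.15 and 1.04.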

How the data were processed

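RNA of NCI-H1650, HCC366, NCI-H196 and A549 cells with ADAR or GFP sgRNAs was depleted of ribosomal RNA and sequenced from a directional library in read pairs. The authors deposited raw counts of read pairs per gene for each library, made by alignment with STAR and counting with HTSeq on hg19 per the labels and the submitters' processing notes. Whether counting used the strand is not given in the sources used here. Alignments to several places stand in a summary line and in no gene, so near-identical genes can lose reads. The 5 summary lines of each file were left out of library sizes and tests.

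Of 58233 gene identifiers, 55727 were matched to a symbol. Symbols came from the GENCODE annotation or, where it lacked the identifier, from a table of gene names or RefSeq. Genes were kept by edgeR's filterByExpr, scaled by TMM and tested with edgeR 4.0.16 (R 4.3.3; quasi-likelihood test, Benjamini-Hochberg adjustment, threshold 0.05, prior count 0.125), ADAR against GFP over the 4 NCI-H1650 libraries. SE is the log2 fold change divided by the root of the F statistic. The difference from another line was the interaction of target and line over 8 libraries. The 4 libraries held 4178438 to 5440992 reads, and in each target the sgRNA libraries differed by more than counting noise. Nothing in the labels says that the sgRNA libraries came from separate cultures, so p-values measure the spread between these samples. Motifs were searched in RefSeq promoters of GRCh38.p14. Exon GC content was that of the canonical transcript of each gene in the GENCODE annotation.

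The members, the gene lists and the rule for named genes were chosen with earlier results of these data known. Named were ADAR, EIF2AK2 and ATF4, the 15 largest rises and falls among protein-coding genes that passed with a mean of at least 5 CPM, the 3 largest of other classes, up to 6 called members of each list with those that define it, and genes within 2 Mb of ADAR. Members named beyond these were chosen after their values were seen. Alternatives were DESeq2 1.42.0, its size factors, other filters on low counts, all 20 libraries in 1 fit, protein-coding nuclear genes only, a minimum log2 fold change of 1, the sgRNA number as a block and each library left out. Offsets for GC content and length were added after the data were seen. The fits were tested on simulated data. Some members of the lists are counted but not reported here by name.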

Additional observations from a re-analysis of the deposited data

Results flagged for a closer look

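These results stood out because the effect of ADAR deletion in NCI-H1650 differed from that in another line by edgeR's test of the difference itself, at an adjusted p under 0.05. The effect differed from that in A549 with vehicle in 487 genes, from that in HCC366 in 1 gene and from that in NCI-H196 in 257 genes.

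Among the genes with the largest rises in NCI-H1650, the log2 difference from A549 was 3.29 for NEURL3, 2.33 for RND1, 2.04 for CXCL2, 2.02 for NR4A3, 2.00 for CXCL1, 1.91 for MEX3B and 1.56 for SNAI2. For NEURL3, RND1 and NR4A3 the rise in NCI-H1650 was smaller than the difference (2.08, 2.17 and 1.92), so their log2 fold changes in A549 were below 0. Of the ATF4 targets of the study, GADD45B differed by 1.19, GADD45A by 1.10, PPP1R15A by 1.03 and TRIB3 by 0.71. Among the genes with the largest falls, the difference was -1.30 for CEP126, -1.12 for PBK, -1.03 for SNRPE, -0.95 for FABP5, -0.93 for PCLAF and -0.81 for SKP2. Each of these genes fell in NCI-H1650 by less than its difference, so their log2 fold changes in A549 were above 0. No group here had 4 libraries, so single libraries were not tested for standing apart.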

How the results depend on the processing

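ADAR kept its direction and its side of the threshold under every alternative run. The number of genes higher was 342 by DESeq2, 157 with all 20 libraries in 1 fit, 219 with a log2 fold change of at least 1, and 408 to 857 with each library left out. The number lower was 71 by DESeq2, 2 with all 20 libraries, 208 with no filter on low counts, 550 with each library's GC and length trend removed, 15 with a log2 fold change of at least 1 in size, and 52 to 311 with each library left out. Of the genes called by DESeq2, 342 higher and 70 lower were also called by edgeR. Of all calls 71.8% were higher, which became 82.8% by DESeq2, 98.7% with all 20 libraries, 59.9% with the GC and length trend removed, 90.4% without GFP sgRNA 1 and 93.6% with a log2 fold change of at least 1 in size. The difference from A549 counted 1 gene with all 20 libraries and 246 to 429 with each library left out. That from HCC366 counted 87 by DESeq2, 432 with all 20 libraries and 0 to 5057 with each library left out, the most without HCC366 ADAR sgRNA 1. That from NCI-H196 counted 0 by DESeq2 (65 above and 51 below at an unadjusted p under 0.05), 1 with all 20 libraries and 3 to 268 with each library left out, the fewest without NCI-H196 GFP sgRNA 1. The cause was not tested.

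The sgRNA number did not pair the libraries (correlation of deviations between same-numbered libraries -0.03). With the number as a replicate block, 838 genes were higher and 258 lower, and edgeR found 419, 0 and 30 genes to differ from A549, HCC366 and NCI-H196. In HCC366 571 stood above and 780 below at an unadjusted p under 0.05. Of 182 named genes that passed, none changed direction under the alternatives that gave a value. The number that no longer passed was 72 by DESeq2, 123 with all 20 libraries, 14 with the trend removed, 11 with the replicate block, and 32 to 71 with each library left out, where the lone sample of a target is assumed to vary like the other target. The libraries held 4178438 to 5440992 reads, and how depth limits the calls was not tested.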
